A study of Mus musculus with 6 samples.

Results

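Keratins, the filaments they form, and the proteins that anchor them were followed in intestinal tumors of 2 sites, the duodenum and the cecum. The set held 9 genes: the keratins Krt7, Krt8, Krt18, Krt19 and Krt20, the actin-binding proteins Vil1 (villin) and Ezr (ezrin), and the desmosome proteins Dsp (desmoplakin) and Jup (plakoglobin). Members were all probe sets whose platform annotation named exactly 1 of these genes, which gave 14 of the 22690 probe sets on the array.

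RNA came from 6 mice, 3 with a duodenal tumor and 3 with a cecal tumor, and each tumor was hybridised to 1 Affymetrix array. All 6 mice were Apc1638N, that is, they carried a mutant Apc allele known to cause intestinal tumors. All 6 were also deficient in Rb1, which encodes the retinoblastoma protein, a brake on the cell cycle. The labels used here name neither the Rb1 allele nor the cells that lost it, and give no age. Per the labels, duodenal samples could include tumor tissue from the pylorus, the outlet of the stomach. No normal tissue was analysed here, so every difference is one between tumors of sites that also differ as normal tissues.

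Simple epithelia such as the gut lining build their filaments from pairs of a type II keratin (Krt7, Krt8) and a type I keratin (Krt18, Krt19, Krt20). Desmoplakin and plakoglobin tie these filaments to desmosomes, the junctions that hold neighbouring cells together, and plakoglobin can also join adherens junctions in place of beta-catenin. Villin bundles the actin core of the microvilli on the absorptive surface, and ezrin links that actin to the plasma membrane. In the intestine Krt20 marks differentiated surface cells, while Krt7 is better known from ducts, stomach and bladder.

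Dsp and Vil1 rose in cecal tumors, each by about 1.5-fold. The broadly expressed keratins Krt8, Krt18 and Krt19 were among the brightest signals on every array, with no probe set past the test. Krt7 was lower and Krt20 higher in every cecal tumor than in every duodenal tumor, but neither passed in the fit reported here (limma adjusted p = 0.0686 and 0.0767). Both passed with the replicate number as a block (0.0218 and 0.0067), and also with array weights and without cecal tumor 3. Of the 14 probe sets, 4 passed, all higher in cecal tumors and 3 of them reading Dsp. None fell in limma's test, while at an unadjusted p under 0.05 there were 6 higher and 2 lower. At that threshold 999 of all 8129 tested genes, each by its brightest tested probe set, were higher and 1029 lower. Over all 13866 tested probe sets 9.3% passed, 5.24% higher and 4.07% lower in cecal tumors. Groups did not overlap for 8 of the 14 probe sets, and for 29.5% of all those tested. All p-values for genes are from limma, adjusted with Benjamini-Hochberg over all tested probe sets, and folds compare cecal with duodenal tumors on the scale log2(intensity + 16).

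**Figure D1:**
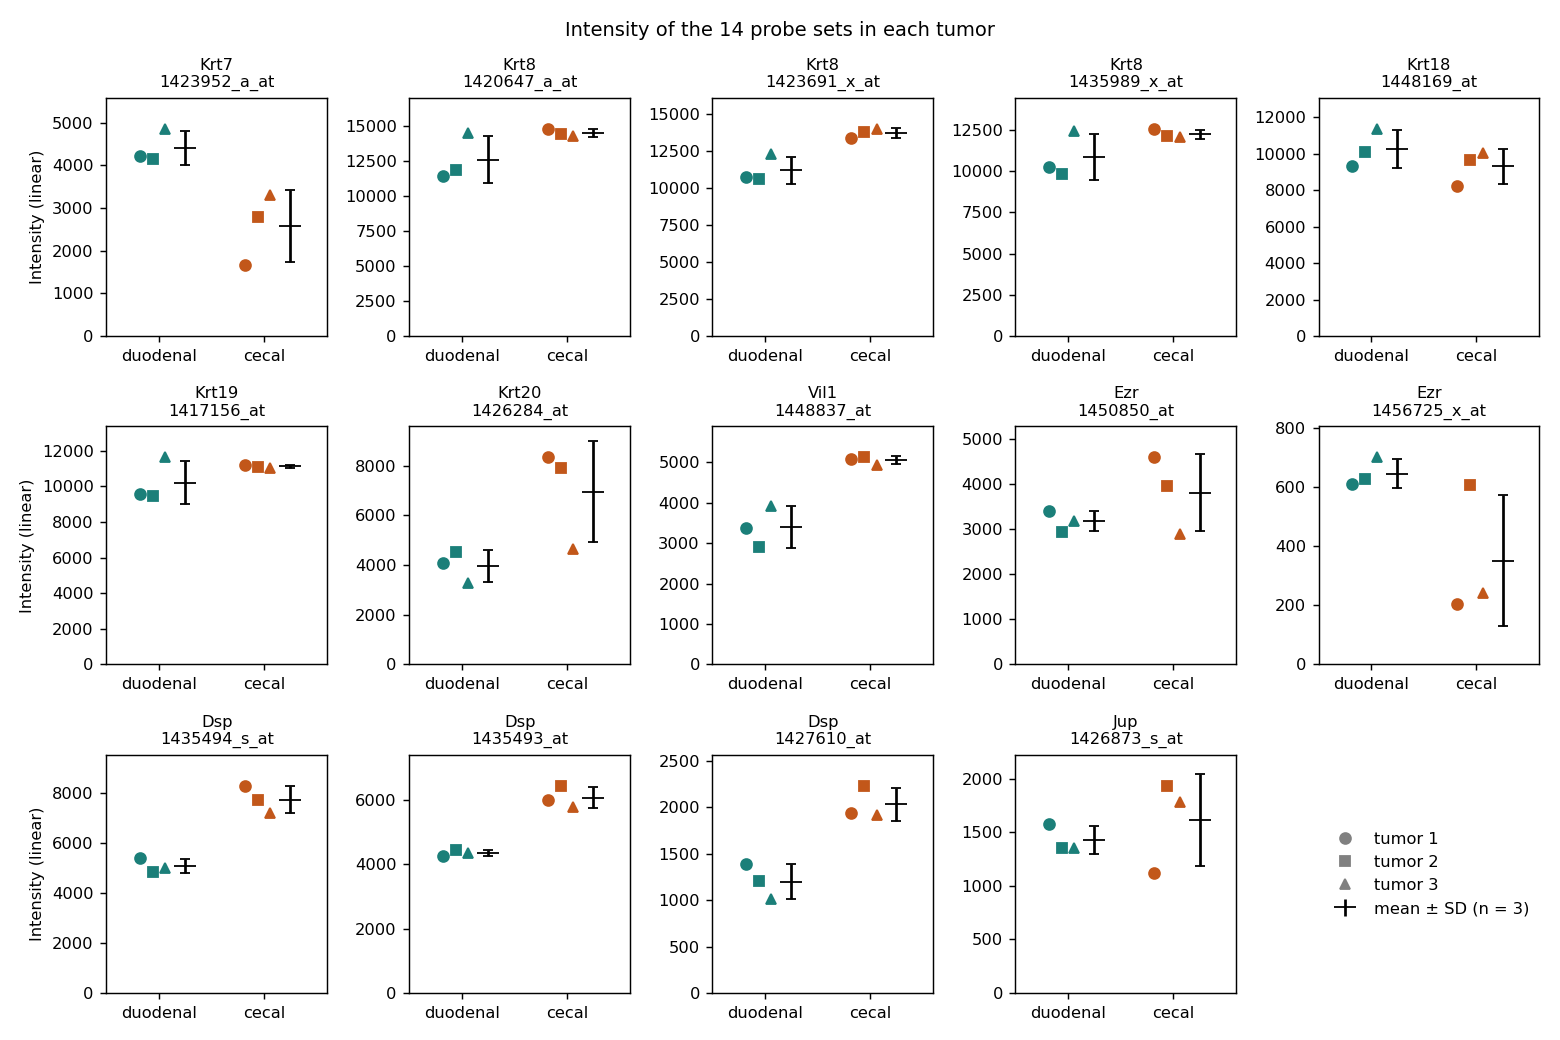
Intensity (linear scale, each axis from 0) of the 14 probe sets in duodenal (teal) and cecal (orange) tumors, 1 point per tumor, with the mean ± SD of 3 tumors beside them. The groups do not overlap in 8 panels, those of Dsp (3 panels), Vil1, Krt7, Krt20, the second Krt8 probe set and the dimmer Ezr probe set. In the other panels they overlap.

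RefSeq windows of 300 bases around the start site (250 before, 50 after; build GRCm38.p6) were at hand for 8 of the 9 genes, all but Krt19. Shown are the windows of Dsp and Vil1, which rose together in cecal tumors, and of Krt20 and Krt7, which differed in opposite directions. Capitals mark matches on either strand to 4 motifs. The TATA box was searched as TATAAA and the GC box, read by Sp and Klf factors, as GGGCGG. The core of sites for Cdx, intestinal homeobox factors, was searched as TTTAT and that of GATA factor sites as GATAA. Every TATA box match contains the Cdx core on the other strand, so these marks overlap.

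Dsp (chr13:38151044-38151343, plus strand): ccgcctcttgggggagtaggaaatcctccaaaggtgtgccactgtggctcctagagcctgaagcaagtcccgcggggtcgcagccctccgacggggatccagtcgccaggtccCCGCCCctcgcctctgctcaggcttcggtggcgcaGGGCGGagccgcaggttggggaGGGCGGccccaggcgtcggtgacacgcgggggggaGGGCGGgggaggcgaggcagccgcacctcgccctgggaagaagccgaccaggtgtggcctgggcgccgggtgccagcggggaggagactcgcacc

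Vil1 (chr1:74409134-74409433, plus strand): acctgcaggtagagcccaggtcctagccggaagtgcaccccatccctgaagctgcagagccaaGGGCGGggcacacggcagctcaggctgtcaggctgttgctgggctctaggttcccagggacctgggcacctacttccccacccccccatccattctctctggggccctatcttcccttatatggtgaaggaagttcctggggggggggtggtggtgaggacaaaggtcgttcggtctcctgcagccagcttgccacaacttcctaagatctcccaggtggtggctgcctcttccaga

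Krt20 (chr11:99438104-99438403, minus strand): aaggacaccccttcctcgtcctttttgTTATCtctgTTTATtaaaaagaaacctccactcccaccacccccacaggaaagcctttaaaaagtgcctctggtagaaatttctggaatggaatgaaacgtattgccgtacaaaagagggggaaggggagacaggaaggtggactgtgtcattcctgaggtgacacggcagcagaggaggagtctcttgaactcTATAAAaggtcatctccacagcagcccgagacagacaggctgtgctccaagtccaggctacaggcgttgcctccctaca

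Krt7 (chr15:101412153-101412452, plus strand): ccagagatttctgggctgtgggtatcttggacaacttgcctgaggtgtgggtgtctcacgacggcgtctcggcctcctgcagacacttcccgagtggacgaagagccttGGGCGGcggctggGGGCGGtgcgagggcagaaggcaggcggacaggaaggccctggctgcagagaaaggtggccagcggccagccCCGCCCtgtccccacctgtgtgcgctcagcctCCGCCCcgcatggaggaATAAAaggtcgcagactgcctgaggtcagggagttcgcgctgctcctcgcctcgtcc

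The Dsp window held 4 GC boxes and the Vil1 window 1, and neither held another of the motifs. The Krt20 window held 1 TATA box, 2 Cdx cores, 1 of them within the TATA box, 1 GATA core and no GC box, and the Krt7 window held 4 GC boxes and 1 Cdx core. Of 32851 such windows, 13.6% held the TATA box, 35.7% the GC box, 40% the Cdx core and 25.4% the GATA core. The share of G and C was 73% in the Dsp window and 50% in that of Krt20, against a median of 52.7% over all windows. A match describes letters in these windows and is no measure of binding.

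Desmoplakin, the plakin that joins keratin filaments to the desmosome, was read by 3 probe sets. The brightest had an intensity of 5411.5, 4838.8 and 5023.7 in duodenal tumors 1, 2 and 3, and 8303.2, 7749.8 and 7208.7 in cecal tumors 1, 2 and 3. Every cecal tumor thus stood above every duodenal tumor. The means were 5091 ± 292 and 7754 ± 547 (SD, n = 3 each), a log2 fold of 0.60 ± 0.10 (SE), or 1.52-fold with a 95% confidence interval of 1.3 to 1.78 (limma adjusted p = 0.00836). This call held under every alternative and without any single array (adjusted p = 0.00477 to 0.0434).

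The second Dsp probe set ran from 4241.2 to 4433.4 in duodenal and from 5768.6 to 6429.2 in cecal tumors, and the dimmest from 1007.2 to 1387.9 and from 1920.4 to 2230.8. Neither overlapped between the sites. Their log2 folds were 0.48 ± 0.09 (SE; limma adjusted p = 0.0169) and 0.76 ± 0.15 (limma adjusted p = 0.0157). Both calls were lost without cecal tumor 1 (adjusted p = 0.0602 and 0.0506) or cecal tumor 2 (0.0884 and 0.0716), and that of the second probe set also without duodenal tumor 1 (0.0711). The 3 probe sets read 1 gene and are not independent measurements.

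Plakoglobin, which binds desmosomal cadherins and desmoplakin, gave 1577.9, 1350.5 and 1354.7 in duodenal tumors, against 1125.4, 1935.1 and 1785.8 in cecal tumors. Cecal tumor 1 was the lowest of all 6, and the other 2 cecal tumors were the highest. The log2 fold of Jup was 0.14 ± 0.20 (SE; limma adjusted p = 0.736), with a 95% interval of the fold from 0.80 to 1.53. Its sign turned without cecal tumor 2. The log2 difference between Dsp and Jup within an array was 1.77 to 1.88 in duodenal and 1.99 to 2.87 in cecal tumors, with cecal tumor 1 the highest and the other cecal tumors at 1.99 and 2.00. With 3 arrays against 3, an exact two-sided permutation test cannot go below 0.1, which is the value found here and in each of the 5 such pairs compared (0.1 after Benjamini-Hochberg adjustment).

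Villin was read by 1 probe set. Its intensity was 3372.6, 2900.1 and 3934.5 in duodenal tumors, against 5088.6, 5124.1 and 4940.8 in cecal tumors. The cecal tumors lay close together and above all duodenal tumors. The means of Vil1 were 3402 ± 518 and 5051 ± 97.2 (SD, n = 3 each), a log2 fold of 0.58 ± 0.13 (SE), or 1.49-fold with a 95% interval of 1.22 to 1.83 (limma adjusted p = 0.0264). The call stood close to the threshold: it was lost without any single array but duodenal tumor 3 (adjusted p = 0.0549 to 0.1) and without the intensity trend (0.0516).

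Ezrin, the link between microvillar actin and the membrane, was read by 2 probe sets that pointed in opposite directions. The brighter gave 3405.7, 2950.3 and 3184.5 in duodenal tumors, against 4596.5, 3954.3 and 2900.4 in cecal tumors, with cecal tumor 3 the lowest of all. Its log2 fold was 0.24 ± 0.17 (SE; limma adjusted p = 0.453). The dimmer, whose name ends in x_at, gave 611.8, 626.6 and 700.8 in duodenal tumors, against 204.1, 606.4 and 243 in cecal tumors. Its groups were apart by the narrow gap between 606.4 and 611.8, and its log2 fold was -1.01 ± 0.35 (SE; limma adjusted p = 0.122). Without cecal tumor 2 that probe set passed (log2 fold -1.47, adjusted p = 0.00405). In Affymetrix naming the suffix x_at marks probes that may also match other transcripts, so no direction is given for Ezr. All Krt8 probe sets but the brightest carry this suffix too, as do the brightest probe sets of Cldn3, Gsn and Vim, among others. Their values may likewise include other transcripts, which was not tested. The brightest Dsp probe set and that of Jup end in s_at, and whether they read other transcripts was not tested either.

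**Figure D2:**
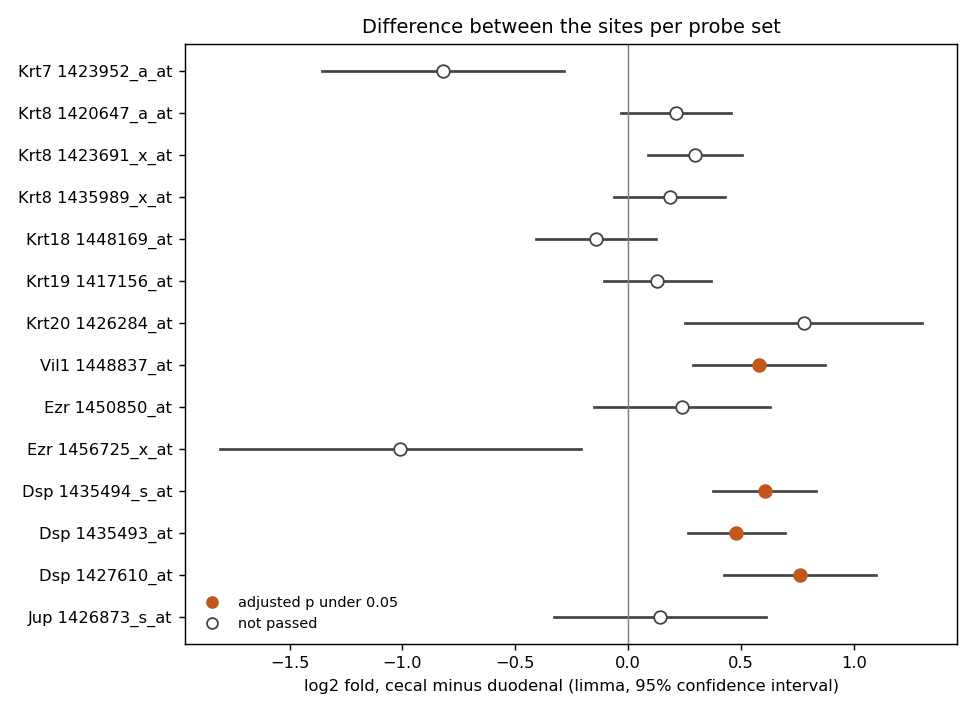
Log2 fold, cecal minus duodenal, of each of the 14 probe sets with its 95% confidence interval from limma; filled points passed at an adjusted p under 0.05. Only the 3 Dsp probe sets and that of Vil1 are filled, and the 2 Ezr probe sets lie on opposite sides of 0.

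Krt8, the main type II keratin of simple epithelia, was read by 3 probe sets. The brightest gave 11409.6, 11828.6 and 14500.8 in duodenal tumors, against 14782.7, 14410.7 and 14281.5 in cecal tumors. Duodenal tumor 3 lay within the cecal range and the other duodenal tumors below it. The log2 fold was 0.21 ± 0.11 (SE; limma adjusted p = 0.283), with a 95% interval of the fold from 0.98 to 1.37, and it passed without duodenal tumor 3 (log2 fold 0.32, adjusted p = 0.0336). The second Krt8 probe set did not overlap between the sites, at 10564.3 to 12242.6 in duodenal and 13322.7 to 13957.1 in cecal tumors. Its log2 fold of 0.29 ± 0.09 (SE) did not pass (limma adjusted p = 0.087), but did with the replicate number as a block (0.0439), with quantile normalization (0.027), with array weights (0.0305) and without duodenal tumor 3 (0.0239). The third had a log2 fold of 0.18 (limma adjusted p = 0.356).

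Krt18, the usual type I partner of Krt8, gave 9320.8, 10079.7 and 11360.7 in duodenal tumors, against 8215.3, 9676.2 and 10021.6 in cecal tumors. These ranges overlapped, and the log2 fold was -0.14 ± 0.12 (SE; limma adjusted p = 0.53; 95% interval of the fold 0.75 to 1.09). Krt19, a type I keratin of many simple epithelia, gave 9546.3, 9468.9 and 11622.9 in duodenal tumors, against 11213.7, 11103.5 and 11031.1 in cecal tumors. Its highest value was that of duodenal tumor 3, and its log2 fold was 0.13 ± 0.10 (SE; limma adjusted p = 0.516; 95% interval of the fold 0.93 to 1.29). In the RefSeq table Krt8 and Krt18 are neighbours on chromosome 15, with no protein-coding gene between them. Their log2 difference within an array was 0.23 to 0.35 in duodenal and 0.51 to 0.85 in cecal tumors, without overlap (exact two-sided permutation p = 0.1, the smallest the design allows).

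These 3 keratins sat near the top of the intensity scale. The brightest Krt8 probe set reached 78.5% to 93.2% of the brightest probe set of its array, Krt19 62.9% to 71.8% and Krt18 50.4% to 72.9%. Whether the upper end of the scale narrowed their differences was not tested. Duodenal tumor 3, whose array had the highest maximum (18469), gave the highest duodenal value of Krt7, Krt18, Krt19, Vil1 and all 3 Krt8 probe sets, and the lowest of Krt20.

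Krt7, a type II keratin, gave 4211.1, 4147.4 and 4852.2 in duodenal tumors, against 1654.1, 2785.5 and 3304 in cecal tumors. All cecal tumors were below all duodenal tumors, and cecal tumor 1 was lowest. The means of Krt7 were 4404 ± 390 and 2581 ± 844 (SD, n = 3 each), a log2 fold of -0.82 ± 0.23 (SE), or 1.77-fold higher in duodenal tumors (limma adjusted p = 0.0686). It passed with the replicate number as a block (adjusted p = 0.0218), with array weights (0.04) and without cecal tumor 3 (log2 fold -1.03, adjusted p = 0.0316). Without cecal tumor 1 its log2 fold was -0.53 (adjusted p = 0.0837).

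Krt20, the type I keratin of differentiated surface cells, gave 4081.4, 4540.3 and 3263.6 in duodenal tumors, against 8338.3, 7906.2 and 4636.3 in cecal tumors. Cecal tumor 3 stood only just above duodenal tumor 2. The means of Krt20 were 3962 ± 647 and 6960 ± 2024 (SD, n = 3 each), a log2 fold of 0.78 ± 0.23 (SE), or 1.71-fold (limma adjusted p = 0.0767). It passed with the replicate number as a block (adjusted p = 0.0067), with array weights (0.0298) and without cecal tumor 3 (log2 fold 1.05, adjusted p = 0.00923).

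The order of the 6 tumors by Krt20 was the exact reverse of their order by Krt7, within each site as well as between sites. Cecal tumor 1 had the most Krt20 and the least Krt7, followed by cecal tumors 2 and 3 and duodenal tumors 2, 1 and 3. This was noticed after the values were seen. Of all genes other than Krt20, 1.55% had the exact reverse order of Krt20 and 0.824% the same order. The reversed genes included Avil, Ehf and Grhl2 of the lists below, and those in the same order Espn, Myo5b and Scin.

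**Figure D3:**
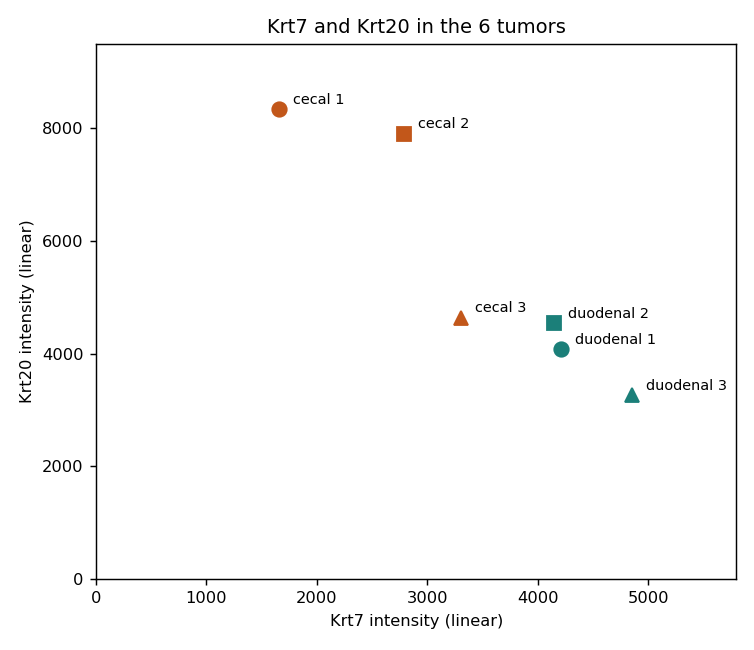
Krt20 intensity against Krt7 intensity (both linear, axes from 0), 1 point per tumor. Each tumor with more Krt7 has less Krt20, from cecal tumor 1 at the upper left (1654.1 and 8338.3) to duodenal tumor 3 at the lower right (4852.2 and 3263.6).

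For each member, the genes with the most similar pattern were those with the smallest root mean square difference of log2 values over the 6 arrays, after each gene's mean was removed. For Dsp they were Atp11b (0.04) and Capg (0.05), and for Vil1 Stc2 (0.04) and Tlr3 (0.06). For Krt7 they were Cdc42ep1 (0.04) and Rcc2 (0.09), and for Krt20 Septin6 and Ccdc71l (0.12 each). Krt8 was closest to Actb (0.03) and Pet100 (0.04), Krt19 to Pet100 and Atp5g3 (0.02 each), and Krt18 to Phb2 (0.03) and Tap2 (0.04). Ezr was closest to Wdr20 and Cisd1, and Jup to Cul4a and Lmnb2. The median gene differed by 0.39 from Dsp and by 0.55 from Krt20.

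Other genes of the brush border and cortical actin, a list of 31 genes of which 24 were tested, differed in both directions. Of the 24, 12 rose and 3 fell in cecal tumors, with a median log2 fold of 0.59. Over all 8129 tested genes 10.4% passed (5.7% higher and 4.75% lower in cecal tumors), with a median of -0.05. At an unadjusted p under 0.05 in limma, 999 of them were higher and 1029 lower. Pls1, an actin bundler of microvilli, rose from 1840 ± 158 to 3978 ± 523 (log2 fold 1.10 ± 0.13 SE, limma adjusted p = 0.00202). Myo7b, a myosin of the links between microvillus tips, had a log2 fold of 0.97 (adjusted p = 0.00611), and Eps8l3, a relative of the actin regulator Eps8, one of 1.19 (0.00832). The ezrin relatives Rdx and Msn, given here outside the naming rule, had log2 folds of 0.12 and 0.17 and did not pass (limma adjusted p = 0.683 and 0.554). The number that rose was 7 without cecal tumor 1 and 7 without cecal tumor 2.

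Villin belongs to the gelsolin family, which caps, severs or bundles actin. Scin, Capg, Vill, Avil and Gsn are already counted in the brush border list, where the last 3 are all of those that fell, and this grouping was made after values were seen. Vil1 rose with Scin (adseverin) and Capg, a capping protein of the family, while Vill (villin-like), Avil (advillin) and Gsn (gelsolin) fell. Vill gave 972.8, 866.8 and 897.2 in duodenal tumors, against 143, 322.2 and 111.8 in cecal tumors, 4.88-fold higher in duodenal tumors (limma adjusted p = 0.00429). Avil, also known as a tuft cell gene, gave 2619.6, 2409.7 and 3556.4 against 233.2, 720.9 and 767.1, 5.42-fold higher in duodenal tumors (limma adjusted p = 0.00869). Neither gene overlapped between the sites.

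Scin gave 94.1, 110.3 and 77.1 in duodenal tumors, against 870.3, 680.7 and 224.7 in cecal tumors (limma adjusted p = 0.0148). It exceeded the 40th percentile in 1 of 3 duodenal tumors, so its log2 fold of 2.28 rests on dim values and moved to 2.45 with an offset of 1 and 1.90 with an offset of 64. Cecal tumor 3 stood well below the other cecal tumors. Capg had a log2 fold of 0.60 (limma adjusted p = 0.0145) and Gsn one of -0.72 (adjusted p = 0.0352), and 1 of 4 other tested Gsn probe sets passed. Flii and Svil, larger members of the family, did not pass (log2 folds 0.19 and 0.13, limma adjusted p = 0.484 and 0.553). Vill and Avil kept their calls under every alternative. The calls of Scin and Capg were lost without cecal tumor 1 (adjusted p = 0.0573 for both) or cecal tumor 2 (0.0625 and 0.0712), and that of Scin without duodenal tumor 3 (0.052). That of Gsn was lost without cecal tumors 2 or 3 or duodenal tumors 1 or 3 (0.0894 to 0.123), with median centring (0.0659), with no filter (0.0559), without the intensity trend (0.0562) and when its probe sets were averaged (0.0524).

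Of 13 tested genes in the desmosome and plakin list, 3 rose in cecal tumors and none fell, while 10.4% of all tested genes passed. The median log2 fold was 0.37. At an unadjusted p under 0.05 in limma 7 were higher and 1 lower, against 999 and 1029 of all 8129 tested genes. Plec (plectin), a cytolinker of intermediate filaments, rose from 1378 ± 191 to 2862 ± 648 (log2 fold 1.03 ± 0.19 SE, limma adjusted p = 0.0122), and its second probe set passed too (log2 fold 0.89, adjusted p = 0.0286). Dst (dystonin), a plakin that includes the hemidesmosome form, had a log2 fold of 1.61 (adjusted p = 0.0182) and Perp, a membrane protein of desmosomes, one of 0.55 (0.0265), a call lost without any single array but cecal tumor 3 (0.0525 to 0.106). The desmosomal cadherin Dsg2 did not pass by its brightest probe set (log2 fold 0.33, limma adjusted p = 0.138), while 2 of its 5 other tested probe sets did (0.60 and 0.68, adjusted p = 0.0296 and 0.0264). Of the 3 that rose, 1 was left without cecal tumor 1, cecal tumor 2 or duodenal tumor 1. Plec lost its call without cecal tumor 1 (limma adjusted p = 0.0551), and Dst without cecal tumor 2 (0.0599) or duodenal tumor 1 (0.0535).

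Among 8 tested adherens junction genes only Cdh17 passed, under every alternative too, while 10.4% of all tested genes passed. This cadherin of intestinal epithelium gave 2747.1, 2614 and 2009.6 in duodenal tumors, against 6155.8, 5995.8 and 5327.7 in cecal tumors (log2 fold 1.25 ± 0.14 SE, limma adjusted p = 0.00141). Ctnnd1, Nectin2 and Nectin3 had log2 folds of 0.36, -0.29 and -0.20 and did not pass (limma adjusted p = 0.132 to 0.378). Ctnnb1, the beta-catenin whose place Jup can take, had a log2 fold of 0.11 (limma adjusted p = 0.621), and is given outside the naming rule.

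Keratins outside the set were mostly too dim to test. Of 21 on the array 7 were tested, and 2 of these fell in cecal tumors, where the median log2 fold was -0.84. Krt23, a type I keratin, gave 1124.7, 2499.3 and 1872.7 in duodenal tumors, against 213.5, 554.4 and 499 in cecal tumors, 4.32-fold higher in duodenal tumors (limma adjusted p = 0.013). Krt79 was below the 40th percentile on all cecal arrays and duodenal tumors exceeded cecal ones by at least 1.85-fold (adjusted p = 0.00423). Krt79 and Krt80 were tested only through the duodenal arrays, so their direction follows from the filter, and both enter the median. With all 6 arrays required above the 40th percentile, 2 of these keratins were tested and 1, Krt23, fell. Krt80 and Krt10 had log2 folds of -0.87 and -0.84 and did not pass (adjusted p = 0.135 and 0.161), Krt80 also being below that percentile on all cecal arrays (a bound of at least 1.35-fold, duodenal over cecal) and Krt10 passing without duodenal tumor 2 (0.00955) and with array weights (0.0394).

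**Figure D4:**
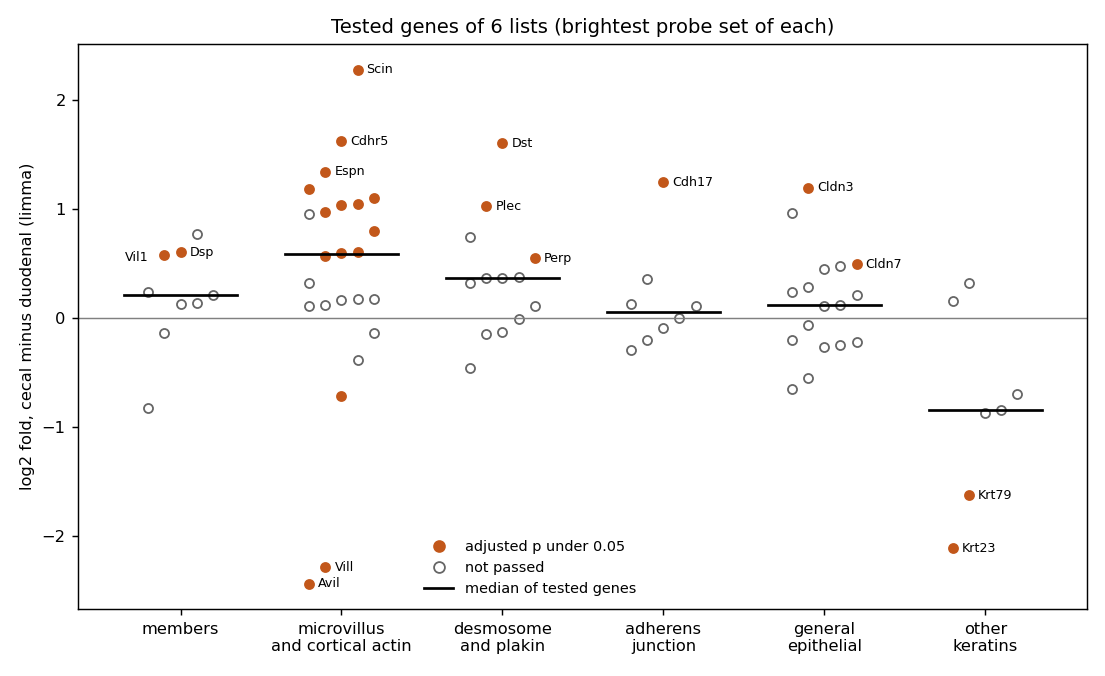
Log2 fold, cecal minus duodenal, of every tested gene in 6 lists (brightest probe set of each gene; the first column is the 9 genes of this set), with the median as a line; filled points passed. The brush border list has the most filled points, 12 above and 3 below 0, and both filled points of the other keratins lie below 0. For 1 of these, Krt79, the direction follows from the filter.

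Of 17 tested genes in a list of general epithelial genes 2 rose and none fell, while 10.4% of all tested genes passed. The median log2 fold was 0.12, with 10 folds positive and 7 negative. At an unadjusted p under 0.05 in limma 6 were higher and 2 lower, against 999 and 1029 of all 8129 tested genes. The 2 lower, given outside the naming rule, were Ehf and Prss8 (-0.55 and -0.65, limma adjusted p = 0.0933 and 0.133). The 2 that rose were the claudins Cldn3 (1.20, limma adjusted p = 0.00479) and Cldn7 (0.50, adjusted p = 0.0103). Esrp1 and Cldn4 did not pass (0.45 and 0.96, adjusted p = 0.0585 and 0.084), but did with the replicate block (0.0305 and 0.00894), under which 5 of the list rose. Cldn4 also passed with array weights (0.0159) and without duodenal tumor 2 (0.0073). Without duodenal tumor 3 there were 4 that rose, and with array weights 4 rose and 2 fell. The list's summed intensity, in which the brightest genes weigh most, was 51587 to 57396 in duodenal and 63083 to 65674 in cecal tumors. Its brightest gene was Lgals4. In bulk RNA, fewer cells of a type and less RNA per cell cannot be told apart.

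Markers of other tissue differed between the sites beside these genes. Of 12 stomach and pylorus genes tested, 10 were below the 40th percentile on all cecal arrays and were tested only through the duodenal arrays, so that their direction follows from the filter. The other 2, Tff1 and Ctse, fell in cecal tumors (limma adjusted p = 5e-06 and 0.000281). The list's summed intensity was 67936 to 103418 in duodenal and 1289 to 2147 in cecal tumors, with Gkn1, Gkn2 and Ctse the brightest. At an unadjusted p under 0.05 in limma 6 of 9 stromal genes were higher, against 999 of all 8129 tested genes. Of the 9 stromal genes 3 passed and rose in cecal tumors, Vim, Col3a1 and Thy1, while 10.4% of all tested genes passed. The count of 3 became 5 with array weights or when probe sets were averaged, and 4 with the replicate block. It fell to 2 under each other filter for dim probe sets. It was also 2 when duodenal tumor 1, duodenal tumor 2 or any cecal tumor was left out. Among duodenal tumors, Thy1 exceeded the 40th percentile in tumor 1 only, so its call rests partly on dim values. The stromal sums were 13697 to 17283 and 19271 to 24165. The brightest were Col3a1, Dcn and Col1a2, of which Dcn and Col1a2 did not pass (limma adjusted p = 0.546 and 0.0955). The leukocyte list, led by Lyz2, Cd14 and Csf1r, summed to 7578 to 8015 and 8742 to 12061, with 0 of 9 tested genes past limma's test and 4 higher at an unadjusted p under 0.05. Smooth muscle genes (Acta2, Tagln and Actg2) summed to 4641 to 7998 and 5372 to 6737 and endothelial genes (Emcn, Pecam1 and Egfl7) to 720 to 916 and 706 to 836, with none of 6 and 5 past limma's test and 0 at an unadjusted p under 0.05.

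Squamous genes summed to 4016 to 4895 in duodenal and 1561 to 3422 in cecal tumors, mostly from Sprr1a, with Krt14 and Krt5 next. In limma 0 of 3 tested genes passed, and 0 at an unadjusted p under 0.05. The squamous factor Trp63 was dim on all arrays. None of 6 mesothelial genes was tested; their sums were 185 to 258 and 65.3 to 86.4, with Msln and Nkain4 the brightest, followed by Upk3b and Gpm6a. When dim probe sets were kept, 2 of these 6 genes and 1 of 12 squamous genes fell in cecal tumors. Of the pancreas list only Cela1, its brightest gene, was tested, and it fell in cecal tumors. Prss2 and Cela3b, the next brightest, were too dim to test, and Cpa1 and Ctrb1 were dim on all arrays. The part of any of these tissues in the values of Krt7, Krt20, Dsp or Vil1 was not tested.

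**Figure D5:**
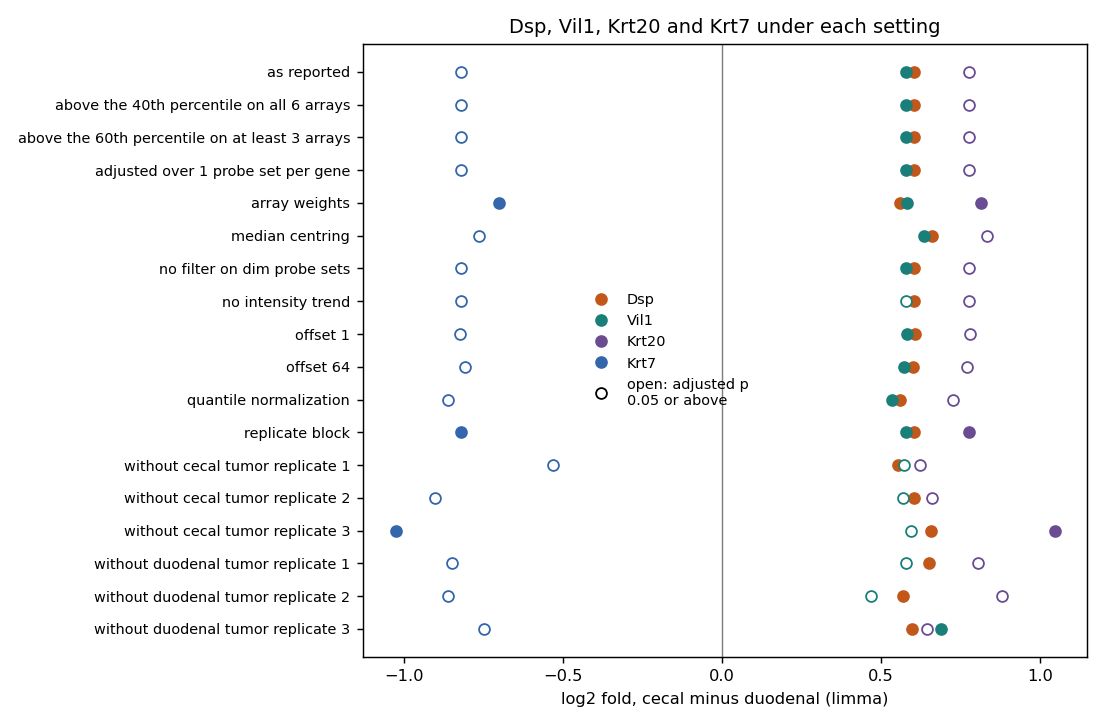
Log2 fold, cecal minus duodenal, of Dsp (its brightest probe set), Vil1, Krt20 and Krt7 as reported and under each alternative setting; filled points passed at an adjusted p under 0.05. Dsp is filled throughout, Vil1 turns open when most single arrays are left out, and Krt20 and Krt7 are filled with array weights, with the replicate block and without cecal tumor 3.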

How the data were processed

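Tumor RNA of 6 mice was hybridised to 1 array each. The deposited values are linear intensities; the submitters' processing notes name MAS5. For version, settings and detection calls: not given in the sources used here. No normalization was added. The arrays' medians were 164 to 182, and precision is limited by having 3 arrays per site.

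Gene names come from the platform annotation; all 9 member symbols matched a RefSeq table (GRCm38.p6). A probe set was tested where at least 3 arrays exceeded their own 40th percentile (92.4 to 101), as log2(intensity + 16), which understates changes of dim genes, with limma 3.58.1 in R 4.3.3 (intensity trend, two-sided, adjusted p threshold 0.05). A gene in a list stands by its brightest tested probe set; a fold of at least N sets the bright group against the 40th percentile. Named are all members, up to 4 genes of each partner list with the smallest p, the 3 brightest of each list of other tissue and the 2 most similar genes per member. Members and lists were chosen with earlier results of these data known. In simulated data (13866 probe sets), 52% of 2-fold and 89% of 4-fold changes were called (100 probe sets each), and 4.08% of the calls were unchanged probe sets. All other probe sets were left unchanged there, a smaller changed share than the 9.3% that passed in the tumors. The adjustment was thus a different one, and these shares need not hold for the reported fit. Figures used Python 3.11.15 and matplotlib 3.10.9.

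Both groups use replicate numbers 1 to 3. Same-numbered tumors had correlated deviations from their site's means (0.274, 0.299 and 0.203, each over 0.1), which by the rule used counts as pairing. The fit reported here has no block, and a gene's blocked value is given where one was taken and changes a call. The labels state no shared litter, day or batch behind them. Alternatives covered the offset, filter, normalization, variance model, adjustment, probe set choice, replicate block and leaving out each array.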

Additional observations from a re-analysis of the deposited data

How the results depend on the processing

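Of the 14 probe sets, 4 rose and 0 fell in cecal tumors as reported. With the replicate number as a block 6 rose and 1 fell, also with array weights, and 2 rose and 0 fell when 1 probe set per gene was kept. Leaving out 1 array gave 1 to 6 that rose and 0 to 1 that fell. Over all probe sets 726 rose and 564 fell as reported. With the block 848 rose and 723 fell, and with array weights 1019 rose and 920 fell, so calls grew in number beyond the members too. With 1 probe set per gene 476 of 8129 rose and 413 fell. Without 1 array 382 to 668 of all probe sets rose and 276 to 593 fell. In the 5 partner lists 18 genes rose and 5 fell, or 8 fell with array weights. Among the 5, Krt79 was tested only through the duodenal arrays, so its direction follows from the filter. Without 1 array 11 to 18 rose and 4 to 7 fell, and with the block 23 rose. Signs turned for Ezr when its probe sets were averaged (log2 fold -0.38) and for Jup without 1 array (-0.0059 to 0.38), none of which passed. The cause was not tested, beyond the smaller number of arrays or probe sets that some alternatives leave. The replicate block lost no call among the 14 probe sets. Among the partner list genes with the smallest p and the gelsolin family, which were run under it, it added those of Esrp1 and Cldn4 and changed no other call. For other named genes no blocked value was taken.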
